A study of Homo sapiens with 12 samples.

Results

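The MYC, MAX and MXD network was followed in HEL cells, an established human erythroleukaemia line, that had regrown after chemotherapy. The 10 members were taken by name from the table of gene counts: the MYC genes MYC, MYCN and MYCL, their partner MAX, and the MAX-binding antagonists MXD1, MXD3, MXD4, MXI1, MNT and MGA. All 10 were among the 26481 genes with a count in each sample, and 9 passed the filter on low counts that kept 14164 genes for testing. MYCL did not pass it.

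Proteins of this network share a basic helix-loop-helix leucine zipper, and MYC binds DNA only as a pair with MAX. MYC-MAX pairs bind the E-box, with the letters CACGTG at its best known form, and raise transcription of genes for ribosome assembly, nucleotide synthesis and growth. The MXD proteins and MNT take up the same partner and the same sites and bring in SIN3 co-repressors with histone deacetylases, and MGA carries MAX into a Polycomb-like repressor complex. In blood cells MYC is high in dividing progenitors, and MXD genes other than MXD3 are turned up as cells leave the cycle and mature.

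RNA was sequenced from 12 cultures of barcoded HEL cells (subline 646C) that all came from 1 stock. Untreated cells (NT, n = 2) were kept in DMSO. Relapses were cultures exposed for 72 h to 1.8 µM doxorubicin, which damages DNA (Doxo, n = 3), to doxorubicin with 6 µM cytarabine, a nucleoside that stops DNA synthesis (Doxo+Cyta, n = 3), or to both plus decitabine at 0.1 µM, a cytidine analog that strips DNA methylation (Doxo+Cyta+DAC, n = 4), then grown for about 30 days after dead cells were removed. No group had decitabine alone, so decitabine was seen only on top of the other drugs, and the cells sequenced were long past the drug. Libraries are named here by group and the replicate number of the label. The labels do not say that NT cultures were grown apart, and p-values measure the spread between these cultures.

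Total counts lay between 12763582 and 19106235 per sample, so that 3 counts, used as the lowest level a sample can show, equal 0.157 to 0.235 on the counts-per-million scale (CPM), for counting error only. Of 16 erythroid and megakaryocyte genes fixed as markers of these cells, 15 had 10 or more counts in every sample, and PF4 was at 0 to 0.14 CPM. The summed level of that list was 10000 to 11000 CPM in NT and 11300 to 11900 in Doxo. It was 12100 to 12900 CPM in Doxo+Cyta and, with decitabine, 7880 to 10800. HBG2 was the largest part of the sum (mean 3910 CPM with decitabine, 5850 in Doxo+Cyta), and the list moved both ways. Mean GATA1 was at 182 CPM with decitabine against 367 in Doxo+Cyta, and mean HBA2 at 561 against 357. Of 8 markers of lymphoid, epithelial, stromal and liver cells, 6 had at most 3 counts in every sample and MS4A1 was at 0 throughout, with a summed level of 0.138 to 1.4 CPM. Of 2 more such markers, kept out of that sum, KRT8 (epithelial) was at 0.105 to 0.64 CPM. The other, PECAM1 (endothelial, also megakaryocyte), was at 96.5 to 142 CPM. Of 3 myeloid blast markers, CD33 was at 108 to 154 CPM, KIT at 126 to 319 and MPO at 0 to 0.133. Libraries that stood apart from others of their group were Doxo 4 (chi-square per degree of freedom 27.3 and 29.7 against Doxo 6 and Doxo 5) and Doxo+Cyta 20 (46.8 and 48.6), where all other pairs within a group gave 3.1 to 16.4. Calls of named genes that were lost without either library are stated beside them.

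The E-box is shown where it lies upstream of members and of known MYC targets. RefSeq promoters (GRCh38.p14, 250 bases before to 50 after a start site, 35116 promoters) were searched for CACGTG, which reads the same on both strands. It was in 7.26% of all promoters, and 8.77% of the 27305 genes had it in at least 1 promoter. Promoters of 9 members were found, and 2 of these genes, MXD4 and MNT, held it, 1 time each. In a list of 51 textbook MYC-induced genes, 24 of 44 with a promoter held it (54.5%), and so did 1 of 9 MYC-repressed genes (11.1%). The stretches below carry the E-box in capitals and overlap no annotated exon. The first pair are members, and the last 3 are induced targets in polyamine synthesis (SRM), amino acid uptake (SLC7A5) and glycolysis (LDHA), chosen after their values were seen to span strong to weak differences. They lie at chr4:2262312-2262359, chr17:2401218-2401283, chr1:11060182-11060247 and chr16:87869602-87869667, all on the minus strand, and at chr11:18394446-18394511 on the plus strand.
MXD4: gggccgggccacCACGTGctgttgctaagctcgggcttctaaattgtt
MNT: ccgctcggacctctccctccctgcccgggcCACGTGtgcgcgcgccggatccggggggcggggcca
SRM: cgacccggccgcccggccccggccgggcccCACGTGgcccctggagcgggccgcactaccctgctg
SLC7A5: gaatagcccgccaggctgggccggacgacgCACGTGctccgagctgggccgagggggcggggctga
LDHA: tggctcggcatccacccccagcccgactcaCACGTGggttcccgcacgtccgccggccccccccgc
The E-box began 238 and 193 bases before the start site in MXD4 and MNT, and 199, 130 and 87 bases before it in SRM, SLC7A5 and LDHA. LDHA held another, 185 bases before the start site. A match of letters is no evidence of binding, and binding was not measured.

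After doxorubicin, cytarabine and decitabine the network had more MYC RNA and less RNA of its MXD antagonists than in any other group. MYC was 1.8-fold higher than in NT, 2.12-fold higher than in Doxo and 2.68-fold higher than in Doxo+Cyta. MXI1, MXD4, MXD3 and MXD1 fell in all 3 comparisons, and on the log2 scale MXI1 fell by 2.14 over NT, fell by 2.66 over Doxo and fell by 2.53 over Doxo+Cyta. MAX fell by 0.32 over NT and fell by 0.51 and 0.54 over the others, and MNT and MGA did not fall with the MXD genes except for a small drop of MNT against Doxo. A gene was called where edgeR's quasi-likelihood test gave a Benjamini-Hochberg adjusted p under 0.05 over all 14164 tested genes. Against NT, 1 of 9 tested members rose and 5 fell, where 24.9% of all tested genes were called higher and 23.7% lower. Against Doxo, 2 rose and 6 fell (29.1% and 30.4% of all genes), and against Doxo+Cyta, 2 rose and 5 fell (29.8% and 30.5%). In bulk RNA, fewer cells that make a transcript and less of it in each cell cannot be told apart, and without added standards a shift in all RNA per cell is not seen.

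**Figure D1:**
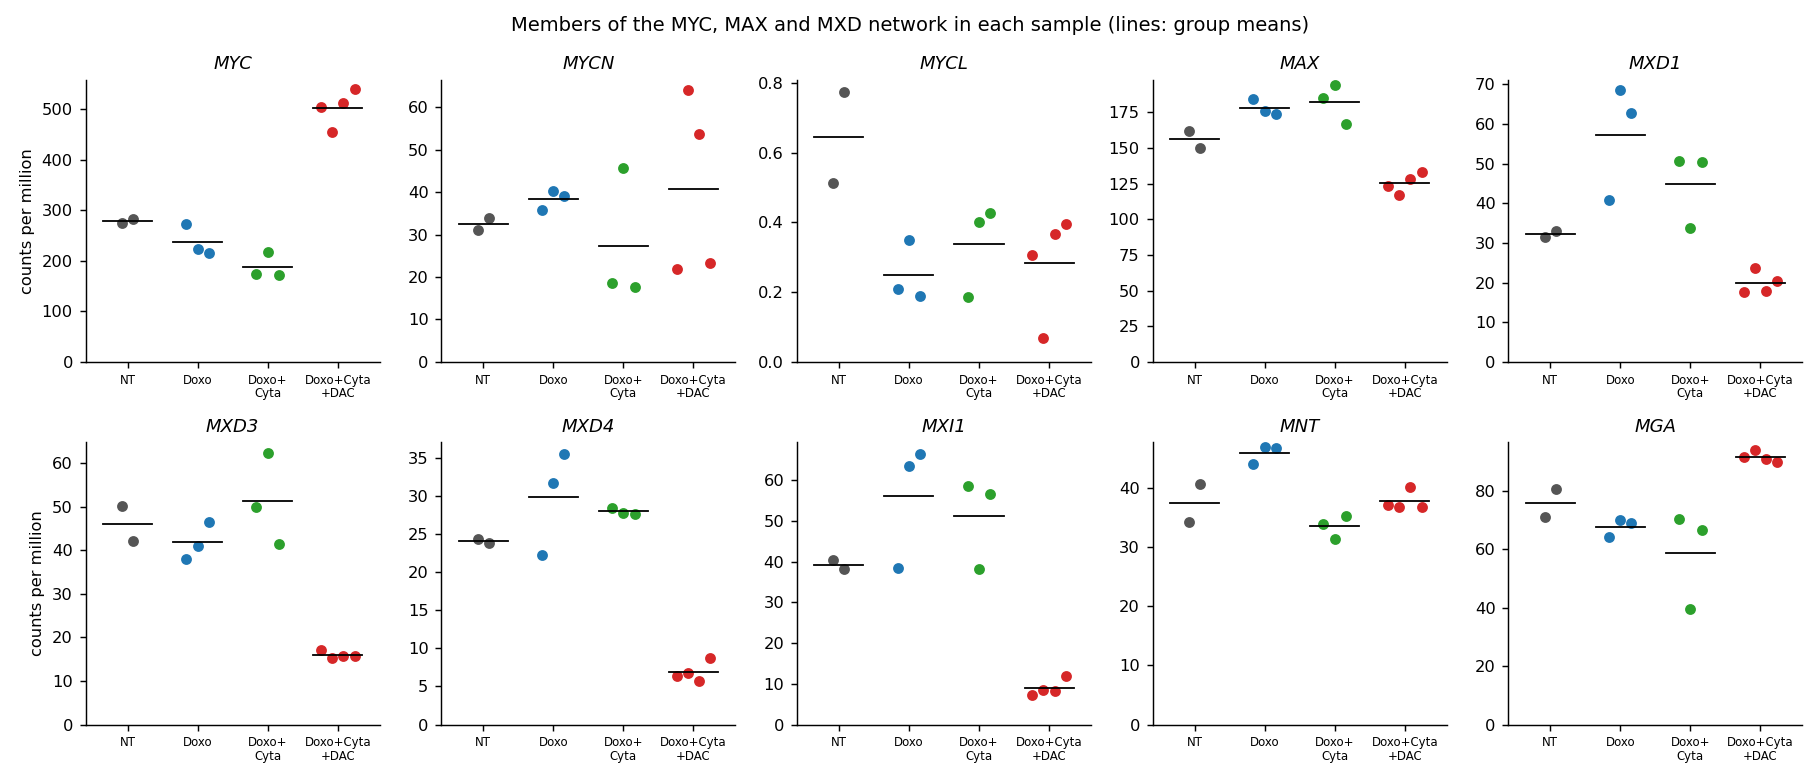
CPM (linear axes from 0) of the 10 members in each of the 12 samples, 1 panel per gene; points are samples and lines are group means. The 4 Doxo+Cyta+DAC samples lie above all others for MYC (455 to 540) and below all others for MAX, MXD1, MXD3, MXD4 and MXI1, while MYCN splits within that group into 22 to 23.3 and 53.8 to 64.2.

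MYC, on chromosome 8 from 127736069 to 127741434 (GRCh38, plus strand), is the activator that most cells use. It was at 275 and 283 CPM in NT, at 273, 224 and 216 in Doxo 4, 5 and 6, and at 174, 217 and 172 in Doxo+Cyta 19, 20 and 22. In replicates 30 to 33 of Doxo+Cyta+DAC it was at 504, 455, 512 and 540. The last group lay above every other sample. The NT pair lay above every relapse without decitabine, but NT 1 and Doxo 4 were within counting error (95% Poisson intervals 268 to 283 and 265 to 282). MYC was not called in Doxo over NT (-0.23 ± 0.13, adjusted p = 0.264). The log2 difference of Doxo+Cyta+DAC was 0.85 ± 0.13 (SE) over NT (adjusted p = 0.00016), 1.08 ± 0.11 over Doxo (adjusted p = 3.74e-06) and 1.42 ± 0.12 over Doxo+Cyta (adjusted p = 3.58e-07). The latter put MYC at percentile 95 of the log2 differences of all tested genes. PVT1, a noncoding gene next to MYC on the same chromosome, did not rise with it. It was at 94.2 to 129 CPM in Doxo+Cyta+DAC against 132 to 148 in Doxo+Cyta and fell by 0.32 on the log2 scale (adjusted p = 0.0225), a call lost without Doxo+Cyta 20 (-0.26, adjusted p = 0.0587).

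MXI1, on chromosome 10 from 110207605 to 110287365 (plus strand), encodes an MXD protein first found as a MAX partner. It was at 40.3 and 38.1 CPM in NT, at 38.5, 63.4 and 66.3 in Doxo 4, 5 and 6, and at 58.6, 38.3 and 56.6 in Doxo+Cyta 19, 20 and 22. In replicates 30 to 33 of Doxo+Cyta+DAC it was at 7.29, 8.39, 8.13 and 11.9. Even the highest of these lay far below all 8 other samples. The log2 difference was -2.14 ± 0.23 over NT (adjusted p = 1.17e-05), -2.66 ± 0.22 over Doxo (adjusted p = 5.58e-07) and -2.53 ± 0.22 over Doxo+Cyta (adjusted p = 5.09e-07). MXI1 then stood at percentiles 2.03, 1.12 and 1.82 of all tested genes.

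MXD4, on chromosome 4 from 2247433 to 2262012 (minus strand), is an MXD gene tied to maturing and resting cells, and its promoter holds the E-box printed above. It was at 24.3 and 23.8 CPM in NT, at 22.2, 31.7 and 35.5 in Doxo 4, 5 and 6, and at 28.4, 27.8 and 27.6 in Doxo+Cyta 19, 20 and 22. In replicates 30 to 33 of Doxo+Cyta+DAC it was at 6.37, 6.74, 5.77 and 8.71, on 98 to 110 counts. These samples did not overlap any other group. The log2 difference was -1.81 ± 0.18 over NT (adjusted p = 7.55e-06), -2.12 ± 0.17 over Doxo (adjusted p = 5.11e-07) and -2.03 ± 0.17 over Doxo+Cyta (adjusted p = 4.54e-07).

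MXD3, on chromosome 5 from 177305500 to 177312291 (minus strand), is the MXD gene that is on during S phase. It was at 50.1 and 42.2 CPM in NT, at 38.1, 41 and 46.5 in Doxo 4, 5 and 6, at 50, 62.4 and 41.5 in Doxo+Cyta 19, 20 and 22, and at 17.1, 15.3, 15.7 and 15.7 in Doxo+Cyta+DAC 30 to 33. The first 3 groups overlapped each other, and the last lay apart. The log2 difference was -1.53 ± 0.15 over NT (adjusted p = 6.28e-06), -1.39 ± 0.14 over Doxo (adjusted p = 2.52e-06) and -1.68 ± 0.14 over Doxo+Cyta (adjusted p = 4.1e-07). Of its 3161 exonic bases, 1429 (45.2%) are shared with PRELID1, a gene for a mitochondrial lipid carrier, and fragments there were counted for neither. PRELID1 itself was higher in Doxo+Cyta+DAC (139 to 161 CPM) than in all other samples (81.6 to 121). The part of PRELID1 in the MXD3 values was not tested.

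MXD1, on chromosome 2 from 69915041 to 69942944 (plus strand), is the founding MXD gene and a marker of myeloid maturation. It was at 31.4 and 33 CPM in NT, at 40.7, 68.6 and 62.7 in Doxo 4, 5 and 6, and at 50.7, 33.7 and 50.4 in Doxo+Cyta 19, 20 and 22. In replicates 30 to 33 of Doxo+Cyta+DAC it was at 17.6, 23.6, 17.9 and 20.5. Relapses without decitabine lay above NT, though Doxo+Cyta 20 and NT 2 were within counting error (95% Poisson intervals 30.8 to 36.8 and 30.3 to 35.9). All relapses with decitabine lay below NT. The log2 difference was -1.53 ± 0.19 over Doxo (adjusted p = 1.25e-05), -1.18 ± 0.19 over Doxo+Cyta (adjusted p = 0.000102) and -0.69 ± 0.21 over NT (adjusted p = 0.0139). The last call was lost without NT 1 (-0.73, adjusted p = 0.0606) and without NT 2 (-0.66, adjusted p = 0.0857).

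MAX, on chromosome 14 from 65006101 to 65102695 (minus strand), is the common partner of the MYC proteins and their antagonists. It was at 162 and 150 CPM in NT, at 184, 176 and 174 in Doxo 4, 5 and 6, at 185, 194 and 167 in Doxo+Cyta 19, 20 and 22, and at 123, 117, 128 and 133 in Doxo+Cyta+DAC 30 to 33. The last group was lowest, without overlap. The log2 difference was -0.51 ± 0.09 over Doxo (adjusted p = 0.000229), -0.54 ± 0.09 over Doxo+Cyta (adjusted p = 0.000131) and -0.32 ± 0.1 over NT (adjusted p = 0.0165). Without NT 1 the last became -0.26 with an adjusted p of 0.161.

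MNT and MGA, the large antagonists that most tissues make at a steady level, took another course. MNT, on chromosome 17 from 2384060 to 2400964 (minus strand), was at 34.2 and 40.7 CPM in NT and at 37.1, 36.8, 40.2 and 36.7 in Doxo+Cyta+DAC 30 to 33, a log2 difference of 0.01 ± 0.12 (adjusted p = 0.941). It was at 44, 46.9 and 46.8 in Doxo 4, 5 and 6 and at 33.9, 31.3 and 35.3 in Doxo+Cyta 19, 20 and 22. Doxo thus held the highest MNT levels, above every other sample. The drop of Doxo+Cyta+DAC below Doxo was 0.28 ± 0.1 (adjusted p = 0.0265) and was lost (adjusted p 0.0547 to 0.0831) when Doxo 5, Doxo 6, or Doxo+Cyta+DAC 30, 31 or 33 was left out, and with no filter on low counts (adjusted p = 0.0846). MNT was also the single member called between Doxo and Doxo+Cyta, where 2.32% of all genes were higher in Doxo and 1.07% lower, at 0.45 ± 0.11 (adjusted p = 0.0378). That call was lost (adjusted p 0.0566 to 0.145) without Doxo 5, Doxo 6, or Doxo+Cyta 19, 20 or 22.

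MGA, on chromosome 15 from 41660412 to 41769943 (plus strand), was at 71.2 and 80.6 CPM in NT, at 64.3, 70.1 and 68.9 in Doxo 4, 5 and 6, at 70.3, 39.6 and 66.8 in Doxo+Cyta 19, 20 and 22, and at 91.6, 93.9, 91.1 and 89.8 in Doxo+Cyta+DAC 30 to 33. The last group was highest and Doxo+Cyta 20 lowest by far. MGA rose by 0.64 ± 0.16 over Doxo+Cyta (adjusted p = 0.00293), and without Doxo+Cyta 20 by 0.42 with the call kept (adjusted p = 0.00117). Over Doxo it rose by 0.43 ± 0.16 (adjusted p = 0.0264), a call lost without Doxo 4 (adjusted p = 0.0621), Doxo 5 (0.0503) or Doxo 6 (0.0569). Over NT the difference was 0.27 ± 0.18 (adjusted p = 0.219).

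**Figure D2:**
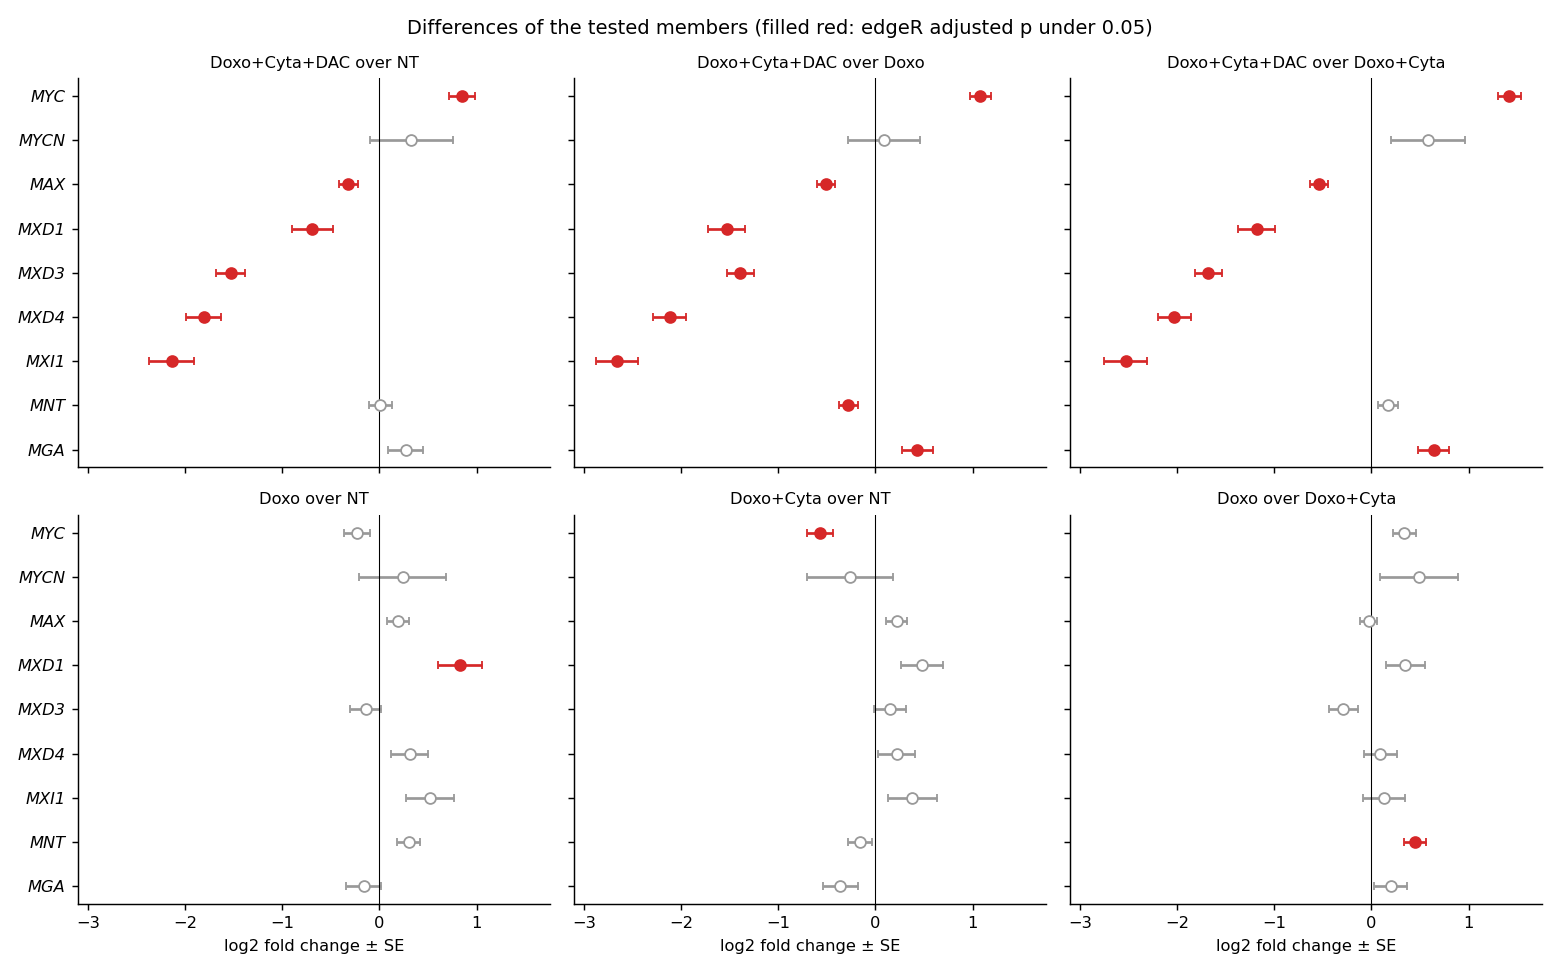
Log2 fold change of the 9 tested members in the 6 comparisons, with bars of 1 SE; filled red points have an adjusted p under 0.05 and open grey points do not. In the upper row (Doxo+Cyta+DAC over each other group) MYC lies to the right and MAX and the 4 MXD genes to the left of 0, and in the lower row 1 member per panel is called.

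Fewer members were called in relapses without decitabine. In Doxo, MXD1 was the single member called over NT, against 6.06% of all genes called higher and 4.63% lower. It rose by 0.83 ± 0.23 on the log2 scale (adjusted p = 0.0318), a call lost without NT 1, NT 2, Doxo 5 or Doxo 6 (adjusted p 0.115 to 0.221). In Doxo+Cyta, MYC was the single member called over NT, against 0.911% of all genes higher and 0.551% lower. It fell by 0.57 ± 0.13 (adjusted p = 0.0489), and the call was lost without NT 1, NT 2, Doxo+Cyta 19 or Doxo+Cyta 22 (adjusted p 0.0979 to 0.459).

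Doxo 4 and Doxo+Cyta 20, the libraries that stood apart, weighed on these counts. Within their groups both had the highest MYC and the lowest MXD1 and MXI1. Leaving them out thus lowers the group means of MYC and raises those of MXD1 and MXI1. It also narrows the spread, so the calls below were favoured by the choice and are no separate support. With both left out, a choice made after the data were seen, 5 members were called in Doxo over NT: MXD1, MXI1, MXD4 and MNT rose and MYC fell by 0.38 (adjusted p = 0.00461). In the same fit, MXD1 (0.63, adjusted p = 0.00731) and MXI1 (0.53, adjusted p = 0.0327) rose in Doxo+Cyta over NT beside the fall of MYC, and between Doxo and Doxo+Cyta 2 members were called, both higher in the first, MYC (0.33, adjusted p = 0.03) and MNT (0.43, adjusted p = 0.0235). With Doxo 4 alone left out, MXI1 joined MXD1 as called in Doxo over NT (0.69, adjusted p = 0.0355), beside 10.1% of all genes higher and 12.2% lower. Counts over all genes rose as well with both left out. They went from 1515 to 5267 in Doxo over NT and from 207 to 2037 in Doxo+Cyta over NT. In Doxo over Doxo+Cyta they went from 481 to 1261. Of 14078 genes tested in that fit, 2564 were called higher and 2703 lower in Doxo over NT. In Doxo+Cyta over NT 855 were higher and 1182 lower, and in Doxo over Doxo+Cyta 728 were higher and 533 lower.

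MYCN, on chromosome 2 from 15940438 to 15947007 (plus strand), drives growth in neural crest and some blood progenitors. It was at 31.2 and 34 CPM in NT and at 35.7, 40.3 and 39.1 in Doxo 4, 5 and 6. In Doxo+Cyta 19, 20 and 22 it was at 18.7, 45.6 and 17.7, and in Doxo+Cyta+DAC 30 to 33 at 22, 64.2, 53.8 and 23.3. Replicates of the last 2 groups thus fell into low and high libraries, with coefficients of variation of 57.8% and 52.5%, against 5.91% in NT and 6.13% in Doxo. The counts behind them were 290 to 303 and 683 in Doxo+Cyta and, with decitabine, 294, 359, 934 and 1026, far from counting error. MYCN was called in 0 of the 6 comparisons by edgeR and by DESeq2, with unadjusted edgeR p of 0.145 to 0.807. The difference of Doxo+Cyta+DAC over Doxo+Cyta was 0.58 ± 0.38 (adjusted p = 0.197), and without Doxo+Cyta 20 it was 1.16 (adjusted p = 0.0134).

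Values of 2 protein-coding genes close to MYCN, chosen after they were seen, stand beside it here. DDX1, an RNA helicase gene that is often amplified together with MYCN, was at 134, 164 and 142 CPM in Doxo+Cyta 19, 20 and 22 and at 287, 294, 274 and 282 in replicates 30 to 33 of Doxo+Cyta+DAC. NBAS, a gene for a vesicle transport protein, was at 235, 162 and 222 CPM in the former and at 116, 123, 94 and 114 in the latter. With decitabine, the libraries high in MYCN (31 and 32) held both the highest and the lowest value of each neighbour. In Doxo+Cyta, the library high in MYCN (20), which stood apart over all genes, had the highest DDX1 and the lowest NBAS. MYCNOS, the antisense gene that shares 160 exonic bases (5.27%) with MYCN, had 2, 12 and 2 counts in Doxo+Cyta 19, 20 and 22, high where MYCN was high. It had 7, 8, 16 and 12 counts in replicates 30 to 33 of Doxo+Cyta+DAC, where it did not follow MYCN, and 5 to 13 in NT and Doxo. Counting ignored strand, so reads of MYCN and MYCNOS outside the shared bases are told apart by position alone.

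**Figure D3:**
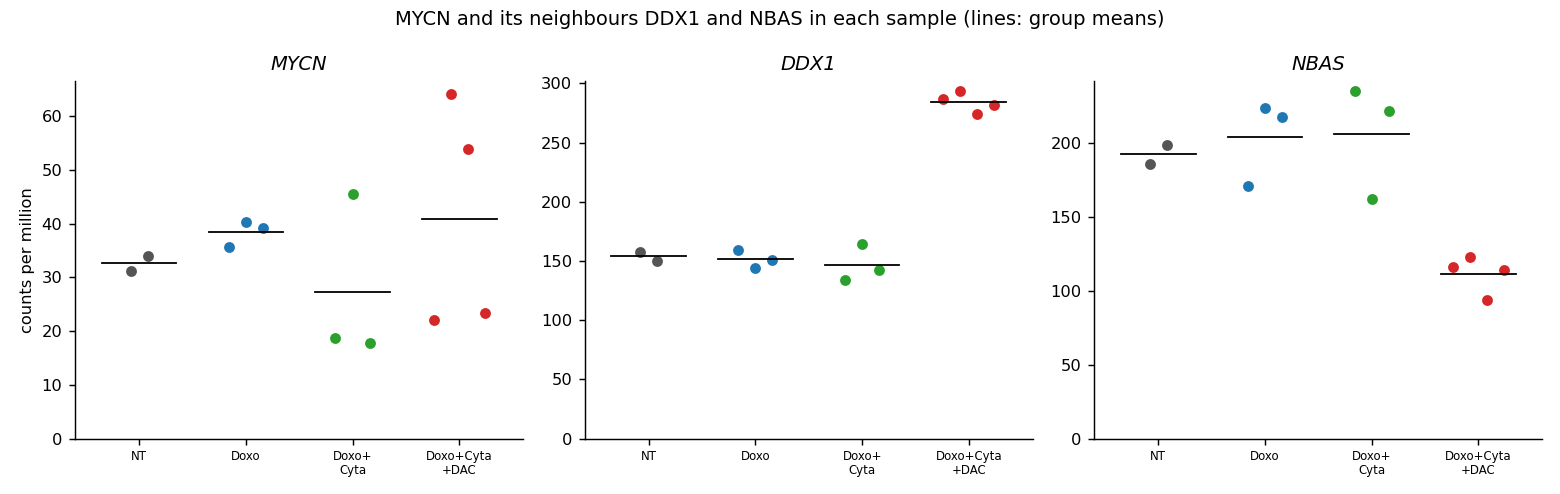
CPM (linear axes from 0) of MYCN and of its chromosome 2 neighbours DDX1 and NBAS in each of the 12 samples; lines are group means. MYCN splits into low and high libraries within both groups that received cytarabine, while DDX1 is at 274 to 294 and NBAS at 94 to 123 in all 4 Doxo+Cyta+DAC samples. In Doxo+Cyta 20, high in MYCN, DDX1 is the highest and NBAS the lowest of its group.

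MYCL, on chromosome 1 from 39895424 to 39902015 (minus strand), is used mainly in lung and dendritic cells. It had 1 to 13 counts per sample, at most 0.774 CPM. Both NT samples (0.514 and 0.774 CPM) lay above the 10 relapses (0.0688 to 0.428), 4 of which were at or below the 3-count level, and MYCL did not enter the test. In a fit with no filter on low counts its difference from NT was -1.37 in Doxo (adjusted p = 0.192), -0.95 in Doxo+Cyta (adjusted p = 0.474) and -1.18 with decitabine (adjusted p = 0.12).

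Levels per kilobase of exon set the members against each other. MYC was first and MAX second in every group, at 118 ± 2.33 and 51.4 ± 2.88 CPM per kilobase (SD) in NT, ahead of all other members in every sample. In NT the order went on with MXD3 (14.6), MYCN (10.7), MXI1 (10.2), MNT (7.73), MXD4 (6.37), MGA (6.3) and MXD1 (5.73), where the ranges of MYCN and MXI1, and of MXD4 and MGA, overlapped. In Doxo+Cyta+DAC the antagonists stood in the order MNT (7.79 ± 0.345), MGA (7.61 ± 0.141), MXD3 (5.05 ± 0.244), MXD1 (3.55 ± 0.494), MXI1 (2.33 ± 0.528) and MXD4 (1.83 ± 0.337). The ranges of MNT and MGA, and of MXI1 and MXD4, overlapped there. MXD3 is set too low on this scale, since its length includes the bases shared with PRELID1. Over the 1732 bases it does not share, a length chosen after the data were seen, MXD3 was at 26.6 ± 3.19 CPM per kilobase in NT and 24.2 ± 2.44 in Doxo. It was at 29.6 ± 6.08 with cytarabine added and 9.22 ± 0.446 with decitabine. It was then the highest antagonist in every group, Doxo+Cyta+DAC included, where its samples (8.86 to 9.87) lay above those of MNT (7.59 to 8.3).

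The 4 MXD genes made up 72.4% ± 3.24 (SD, n = 2) of the summed antagonist level per kilobase in NT and 74.9% ± 3.46 (n = 3) in Doxo. They made up 79.3% ± 2.08 (n = 3) in Doxo+Cyta and, with decitabine, 45.3% ± 2.36 (n = 4). On the unshared length of MXD3 these shares were 77.7%, 78.8%, 83.2% and 52.3%. The summed level of all 6 was 51 ± 0.549, 61.1 ± 9.96, 56.8 ± 3.83 and 28.1 ± 0.751 CPM per kilobase in the same order. The ratio of MYC to that sum was 2.27 and 2.37 in NT, 2.32, 1.44 and 1.34 in Doxo 4, 5 and 6, 1.21, 1.73 and 1.28 in Doxo+Cyta 19, 20 and 22, and 7.78, 6.77, 7.82 and 7.85 in Doxo+Cyta+DAC 30 to 33. Every Doxo+Cyta+DAC value lay above all others, and Doxo 4 lay between the NT samples. The mean was 2.32 ± 0.0706 (SD) in NT and 1.7 ± 0.54 in Doxo. It was 1.41 ± 0.282 in Doxo+Cyta and 7.55 ± 0.526 with decitabine. The size of the ratio depends on the scale: without division by length it was 1.1 in NT, 0.819 in Doxo, 0.714 with cytarabine added and 2.78 with decitabine, so that MYC lay below the sum in Doxo and Doxo+Cyta. On the unshared length of MXD3 it was 1.87, 1.44, 1.13 and 6.58. Against MAX alone, MYC was at 2.3 ± 0.174, 1.71 ± 0.168, 1.32 ± 0.115 and 5.15 ± 0.106. These are ratios of RNA, and neither protein nor pairing was measured.

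**Figure D4:**
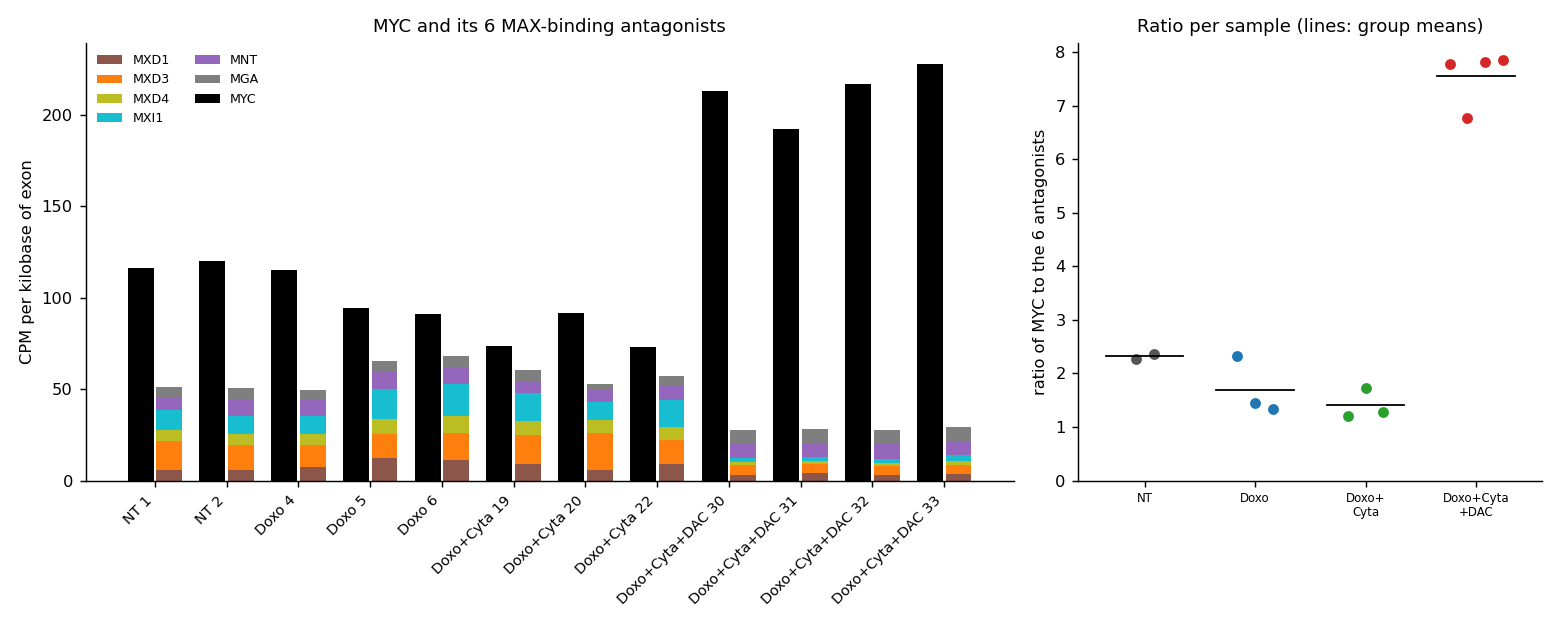
Left, levels per kilobase of exon (CPM per kilobase, bars from 0) of MYC in black and of its 6 antagonists stacked in colour for each of the 12 samples; right, the ratio of MYC to the summed antagonists per sample, with lines at group means. The ratio is 6.77 to 7.85 in the 4 Doxo+Cyta+DAC samples and 1.21 to 2.37 in the other 8.

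Most genes of a list of MYC targets, chosen with earlier results of these data known, rose where MYC was highest. Of 50 tested genes in the MYC-induced list, 41 rose and 0 fell in Doxo+Cyta+DAC over NT, 44 rose and 2 fell over Doxo, and 43 rose and 3 fell over Doxo+Cyta. Their median log2 difference was 1.02, 1.17 and 1.34, where the median of all tested genes was 0.024, -0.006 and 0. The shares of all genes called in these comparisons, given above, were 24.9%, 29.1% and 29.8% higher and 23.7%, 30.4% and 30.5% lower. In the last comparison 16 of 17 nucleolar genes rose, among them NCL (nucleolin, 819 to 2570 CPM, log2 difference 1.65 ± 0.13) and MYBBP1A (2.31 ± 0.27). The largest differences were those of SLC19A1, the folate carrier (3.03 ± 0.39, adjusted p = 1.77e-05), and CTPS1, which makes CTP (2.52 ± 0.3, adjusted p = 7.47e-06). IMPDH2 (guanine nucleotide synthesis), CCND2 (a cyclin) and HK2 (a hexokinase) fell by 0.62, 0.6 and 0.59. PKM, TFRC, FBL and APEX1 were not called.

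The E-box within the searched promoters divides the same targets into those with and those without it. Sites outside these promoters were not searched. In Doxo+Cyta+DAC over Doxo+Cyta, 21 of 24 tested genes with CACGTG rose and 1 fell (median 1.35), and 17 of 19 without it rose and 0 fell (median 1.25). Over NT, 20 of 24 with it and 16 of 19 without it rose (medians 1.15 and 0.92). The difference between these shares was not tested. Of the targets printed above, SRM rose by 1.94 ± 0.26, SLC7A5 by 1.59 ± 0.21 and LDHA by 0.22 ± 0.09 over Doxo+Cyta, and the last call was lost without Doxo+Cyta 20 (0.21, adjusted p = 0.0535).

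Few genes of the MYC-induced list were called in relapses without decitabine. In Doxo over NT 0 genes rose and 3 of 50 fell (TERT, CAD and PHB), a share near the 4.63% of all genes called lower. There 6.06% of all genes were called higher, and the list median was -0.07. In Doxo+Cyta over NT 0 rose and 1 fell (NOLC1, a nucleolar chaperone gene), with a median of -0.22. Of all genes, 0.911% were higher and 0.551% lower in that comparison. In Doxo over Doxo+Cyta, CDC25A, a cell cycle phosphatase gene, was higher by 0.53 ± 0.13 (adjusted p = 0.0454), a call lost without Doxo 4 (0.35, adjusted p = 0.0805). It was the 1 gene of the list called there, beside 2.32% of all genes higher and 1.07% lower. The count in Doxo over NT went to 18 called without Doxo 4, of which 17 were lower, beside 3137 of all genes (10.1% higher, 12.2% lower), and to 0 without NT 1, NT 2, Doxo 5 or Doxo 6. With Doxo 4 and Doxo+Cyta 20 both left out, 25 fell and 2 rose in Doxo over NT, and 27 fell and 2 rose in Doxo+Cyta over NT, beside 2703 and 1182 of 14078 genes that fell and 2564 and 855 that rose. The count in Doxo+Cyta over NT was 2 without Doxo+Cyta 20 and 0 without NT 1, NT 2, Doxo+Cyta 19 or Doxo+Cyta 22. The count in Doxo over Doxo+Cyta was 4 without Doxo 4, all lower, 3 without Doxo+Cyta 20 (2 higher, 1 lower) and 0 without Doxo 5, Doxo 6, Doxo+Cyta 19 or Doxo+Cyta 22. Of all genes, 3.22% were higher and 3% lower there without Doxo 4, and 2.77% and 1.13% without Doxo+Cyta 20. In Doxo+Cyta over NT without Doxo+Cyta 20, 0.787% of all genes were higher and 0.815% lower.

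Of 10 tested genes of the MYC-repressed list, 3 rose and 6 fell in Doxo+Cyta+DAC over Doxo+Cyta, with a median of -0.7, where 29.8% of all genes rose and 30.5% fell. CCNG2, a cyclin of growth arrest (-2.99 ± 0.29), NDRG1, a gene of differentiation and stress (-2.97 ± 0.21), and PDGFRB, a receptor kinase gene (-2.68 ± 0.14), fell. THBS1, for a matrix glycoprotein (3.38 ± 0.48), CDKN1A, the CDK inhibitor p21 (1.37 ± 0.42), and CEBPA, a myeloid transcription factor gene (1.03 ± 0.29), rose. THBS1 was uneven with decitabine (154 ± 114 CPM, SD), and CDKN1A in Doxo+Cyta (23.6 ± 19.3). Without Doxo+Cyta 20 the rise of CDKN1A was 2.28. Over NT 3 rose and 6 fell (24.9% and 23.7% of all genes), and over Doxo 1 rose and 5 fell (29.1% and 30.4%). In Doxo over NT 2 rose and 0 fell, beside 6.06% of all genes higher and 4.63% lower. CDKN1A rose by 3.13 ± 0.56 (adjusted p = 0.0054). CEBPA rose by 1.25 ± 0.37 (adjusted p = 0.0445), a call lost without Doxo 4 (1.1, adjusted p = 0.0665). In Doxo+Cyta over NT edgeR called 0 (2 at an unadjusted p under 0.05, 0 by DESeq2). There 0.911% of all genes were higher and 0.551% lower. In Doxo over Doxo+Cyta 1 was called, CDKN1A (2.06 ± 0.45), where 2.32% of all genes were higher and 1.07% lower.

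MLX, a partner related to MAX, pairs with some MXD proteins, with MNT and with the glucose sensors MLXIP (MondoA) and MLXIPL. Of 4 tested genes of this branch, 0 rose and 3 fell in Doxo+Cyta+DAC over Doxo+Cyta (median -0.62), where 30.5% of all genes fell. TXNIP, a MondoA target that curbs glucose uptake, fell from 1340 ± 191 to 222 ± 49.3 CPM (-2.6 ± 0.19, adjusted p = 1.44e-07), MLXIP fell by 0.67 and ARRDC4, a relative of TXNIP, by 0.57. MLX itself was at 49.3 ± 4.78 against 45.1 ± 1.25 CPM (adjusted p = 0.295). Over Doxo 0 rose and 3 fell (29.1% and 30.4% of all genes), and over NT 1 rose and 2 fell (24.9% and 23.7%). In Doxo over NT TXNIP rose by 0.93 ± 0.22 (adjusted p = 0.0196), and by 1.08 without Doxo 4. There 1 of the 4 rose and 0 fell, beside 6.06% of all genes higher and 4.63% lower. In Doxo+Cyta over NT and Doxo over Doxo+Cyta edgeR called 0 of the 4 (1 each at an unadjusted p under 0.05, 0 by DESeq2). Of all genes, 0.911% were higher and 0.551% lower in the former, and 2.32% and 1.07% in the latter.

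Among 23 co-factors, 14 rose and 4 fell in Doxo+Cyta+DAC over Doxo+Cyta (median 0.56), 14 rose and 2 fell over Doxo, and 13 rose and 2 fell over NT, where 29.8% and 30.5%, 29.1% and 30.4%, and 24.9% and 23.7% of all genes rose and fell. On the activating side RUVBL1, an ATPase of MYC-bound remodellers (1.82 ± 0.27), and HCFC1, an adaptor bound by MYC (1.17 ± 0.13), rose, while the acetyltransferase genes KAT2A and KAT5 fell by 0.34 and 0.3. The call of KAT2A was lost without Doxo+Cyta 20 (-0.25, adjusted p = 0.123). On the side of the antagonists L3MBTL2 of the MGA complex rose (1.32 ± 0.18). The SIN3 complex that MXD proteins bring in moved both ways: the scaffold gene SIN3A (0.75 ± 0.12) and the deacetylase genes HDAC1 (0.71 ± 0.09) and HDAC2 (0.46 ± 0.09) rose, the subunit gene SAP30 fell by 1.2 ± 0.12 and SIN3B fell by 0.29 ± 0.12, and SAP18 was not called (0.16 ± 0.09). In Doxo over NT 2 rose (SAP18 and HDAC1, both of the SIN3 complex, by 0.54 and 0.49) and 4 fell, with RUVBL1 (-1.17 ± 0.3) and KAT2A (-0.6 ± 0.16) as the largest, beside 6.06% of all genes higher and 4.63% lower. Without Doxo 4 all 6 kept their call, with RUVBL1 at -1.73 and KAT2A at -0.78.

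Of 22 genes that control MYC itself, 13 rose and 3 fell in Doxo+Cyta+DAC over Doxo+Cyta (median 0.37), 11 rose and 2 fell over Doxo, and 8 rose and 1 fell over NT, beside the same shares of all genes. Without Doxo+Cyta 20 the first became 12 and 1, where 31.1% of all genes rose and 31.3% fell. Without Doxo 4 the second became 8 and 2 (36.4% and 9.09% of the list), where 30.5% of all genes rose and 30.2% fell. KIAA1524, which encodes CIP2A, a protein that keeps the phosphatase PP2A off MYC, rose by 1.42 ± 0.14 (adjusted p = 1.23e-06), PUF60, a repressor at a MYC upstream element, by 1.34 ± 0.17, and HNRNPK by 0.87 ± 0.08. USP28, a deubiquitinase that spares MYC, fell by 1.43 ± 0.21, and PIM1, a kinase that stabilises MYC, by 0.24 ± 0.09, a call lost without Doxo+Cyta 20 (-0.21, adjusted p = 0.0729). In Doxo over NT KIAA1524 and the ubiquitin ligase gene SKP2 fell, by 0.61 and 0.56, and 0 rose. There 6.06% of all genes were higher and 4.63% lower. In Doxo+Cyta over NT edgeR called 0 co-factors (7 at an unadjusted p under 0.05, 2 by DESeq2) and 0 control genes (2 and 1). In Doxo over Doxo+Cyta it called 0 co-factors (5 and 3) and 0 control genes (2 and 0). Of all genes, 0.911% were called higher and 0.551% lower in the former comparison, and 2.32% and 1.07% in the latter. For lists this short, 0 calls are near those shares.

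The gene whose pattern over the 12 samples was most like that of MYC was CDC25A, among 9221 other genes of at least 10 CPM (Pearson r of log2 CPM 0.991, a description without a test). It was at 71.6 ± 1.87 CPM in NT and 155 ± 8.37 in Doxo+Cyta+DAC. NETO2, FAM120AOS, PSME3 and NOLC1 followed (0.986 to 0.989). For MXD3, the antagonist with the highest mean level per kilobase, FES, SYTL1, GDPD5, LTBP4 and TMUB2 were most alike (0.987 to 0.992). As Doxo+Cyta+DAC stood apart from the other groups in MYC and in MXD3, these values rest largely on that difference.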

How the data were processed

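RNA of 12 HEL cultures was sequenced by the submitters (TruSeq libraries, paired reads). Per the labels, the methods and the file headers, the authors filtered reads, aligned them to GRCh38 with Bowtie2 2.2.8, an aligner that cannot place a read across a splice junction, and made fragment counts per gene with featureCounts 1.6.0, ignoring strand and leaving out fragments that met several genes or places. The deposited counts are raw. Levels across genes depend on the summed exon length and on reads lost at junctions.

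Of 26485 rows, 4 lacked a value and were left out. Counts were analysed with edgeR 4.0.16 (R 4.3.3; filterByExpr, TMM scaling, 1 quasi-likelihood fit of all 12 samples; two-sided tests, Benjamini-Hochberg adjustment). SE is the log2 fold change over the root of F. CPM used TMM-scaled totals, and log2 CPM a prior count of 2. DESeq2 1.42.0, other scalings and filters, and leaving out libraries were alternatives. The fit was tested on simulated counts drawn from the means and totals of these samples. No pair of libraries in a group was a duplicate. Groups came from the labels. The series text counts 3 untreated samples, and 2 are labelled. Figures were drawn with matplotlib 3.10.9.

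The members and gene lists were chosen with earlier results of these data known. Named genes are all 10 members, up to 3 per direction and list with the largest called difference in Doxo+Cyta+DAC over Doxo+Cyta and up to 2 in Doxo over NT (mean of 1 CPM or more in whichever group was higher), and the 5 most alike in pattern to MYC and to the antagonist highest per kilobase. Others are named for a count of 5 or fewer, a role or a position, after their values were seen. Coordinates are those of the deposited table.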

Additional observations from a re-analysis of the deposited data

Results flagged for a closer look

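In the 4 Doxo+Cyta+DAC samples, the gap of an extreme library to its nearest neighbour was compared with the whole range for the 10 members and for the ratio of MYC to its antagonists, 11 quantities in all. Chance passes Dixon's 95% limit in about 1 of 20 such groups. It was passed by MNT, where Doxo+Cyta+DAC 32 was highest (40.2 CPM against 36.7 to 37.1, gap over range 0.909), and by the ratio, where Doxo+Cyta+DAC 31 was lowest (6.77 against 7.78 to 7.85, gap over range 0.931). Doxo+Cyta+DAC 31 also held the lowest MYC and the highest MXD1 of its group.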

How the results depend on the processing

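Of 24 called differences of members, 17 kept their direction and their call under every alternative run (13 to 15 each). MYC, MXD3, MXD4 and MXI1 in the 3 comparisons of Doxo+Cyta+DAC were among them. No paired analysis was possible because the groups share no replicate numbers. Causes of the changes below were not tested, and with 2 NT samples, comparisons with NT are the least certain.

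Members called in Doxo+Cyta over NT went from 1 to 0 with upper-quartile scaling and in a fit of only the groups compared, those in Doxo over Doxo+Cyta from 1 to 0 with either, with total counts alone and with no filter, and those in Doxo over NT from 1 to 0 with total counts alone. All genes called in Doxo+Cyta over NT (207) became 137 with total counts, 358 with no filter, 835 with DESeq2 and 13 with only the groups compared, and those in Doxo over Doxo+Cyta (481) became 933 with DESeq2 and 67 with only the groups compared. MYC-induced genes called were 5 with no filter in Doxo over NT (3), in Doxo+Cyta over NT (1) 4 with no filter, 5 with DESeq2 and 0 with upper-quartile scaling, at least 10 counts in every sample or only the groups compared, and in Doxo over Doxo+Cyta (1) 3 with DESeq2 and 0 with upper-quartile scaling, total counts or only the groups compared. With Doxo 4 and Doxo+Cyta 20 both left out, a choice made after seeing the data, all genes, members and MYC-induced genes called were 5267, 5 and 27 in Doxo over NT, 2037, 3 and 29 in Doxo+Cyta over NT, and 1261, 2 and 8 in Doxo over Doxo+Cyta.

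Leaving out 1 library at a time gave 81 to 3137 genes in Doxo over NT, 0 to 226 in Doxo+Cyta over NT (1895 and 1191 at an unadjusted p under 0.05 in edgeR where it was 0, without NT 1 and NT 2), 4461 to 6596 in Doxo+Cyta+DAC over NT (6893) and 130 to 877 in Doxo over Doxo+Cyta. Members called were 0 to 2, 0 to 1 and 0 to 1 in Doxo over NT, Doxo+Cyta over NT and Doxo over Doxo+Cyta, and MYC-induced genes 0 to 18, 0 to 2 and 0 to 4. The higher share of calls moved with total counts from 56.7% to 32.4% in Doxo over NT and from 62.3% to 35% in Doxo+Cyta over NT, as the median of all genes shifted by -0.119 and -0.098. With upper-quartile scaling it moved from 68.4% to 54.8% in Doxo over Doxo+Cyta.

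Values near 0 changed sign, and leaving out 1 library at a time took these to at most 0.14 (MNT), 0.25 (MXD4), 0.33 (MXI1), 0.34 (MGA), 0.28 (MXD3) and 0.3 (MYCN), and MAX to at least -0.1. MNT in Doxo+Cyta+DAC over NT (0.01) was -0.07 with upper-quartile scaling, -0.09 with total counts, -0.03 with no filter or at least 10 counts, -0.02 with only the groups compared or without Doxo+Cyta+DAC 32, and -0.11 without NT 1. In Doxo over Doxo+Cyta, MXD4 was -0.06 and MXI1 -0.01 without Doxo 6, and without Doxo+Cyta 20 MXI1 was -0.04, MAX 0.01 and MGA -0.02. MXD3 in Doxo+Cyta over NT was -0.03 without Doxo+Cyta 20, with or without Doxo 4, and MYCN in Doxo+Cyta+DAC over Doxo was -0.21 without Doxo+Cyta+DAC 31 and -0.07 without Doxo+Cyta+DAC 32. Without division by length the ratio of MYC to its antagonists was 1.1 in NT, 0.819 in Doxo, 0.714 with cytarabine added and 2.78 with decitabine, and on the unshared length of MXD3, also chosen after seeing the data, 1.87 in NT and 6.58 in Doxo+Cyta+DAC. MYCL was limited by depth.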
